A study of Homo sapiens with 24 samples.

Results

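The genes of the primary cilium and of intraflagellar transport were examined across 8 groups of BT-474 cells, to ask whether the rise of the dynein light chain gene DYNLRB2 after HER2 siRNA was accompanied by a wider change in ciliary genes. The list held 36 genes chosen by function, with earlier results of these data known. Each was read from the probe set with the highest mean over the 24 arrays among probe sets annotated to that gene alone. TTC21B had no such probe set. Of the 35 genes measured, 29 were tested, out of 14335 genes tested on the array. The other 6 (DYNC2H1, IFT57, BBS5, BBS12, ARL6 and RPGRIP1L) did not reach a log2 level of 5 in 3 arrays.

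BT-474 is an established human breast carcinoma line that carries extra copies of ERBB2, the gene of the HER2 receptor, and expresses the estrogen receptor. The cells received HER2 siRNA or control siRNA, and either 10 nM estrogen or its vehicle, 0.001% ethanol, for 4 or 24 h. Each of the 8 combinations was measured on 3 Affymetrix arrays, so 12 arrays stood on each side of the siRNA comparison. The labels give the target of the siRNA but no sequence, and every array came from the same line. Sample titles do not say how long before harvest the siRNA was given. Values are log2 RMA levels, and a difference of 1 is a 2-fold change. Differences are given ± the standard error (SE) of the fit. Adjusted p-values come from limma with Benjamini-Hochberg adjustment over all genes tested, and a gene rose or fell where its adjusted p was under 0.05.

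The targeted gene, ERBB2, fell with HER2 siRNA by 1.34 ± 0.056 on the log2 scale, averaged over the 4 conditions. Array medians lay between 5.28 and 5.36, and the pairwise correlations of arrays within a group were 0.991 to 0.997. The 7 luminal epithelial markers, ERBB2 among them, had mean levels of 9.04 to 13.63 with control siRNA and 8.98 to 13.35 with HER2 siRNA. With HER2 siRNA 4 of the 7 fell and 1 rose. Among markers of other cell types, PTPRC of leukocytes stood at 3.89 (control) and 3.77 (HER2 siRNA), and CDH5 of endothelium at 3.59 and 3.50. The fibroblast list was at 3.41 to 9.76, with COL1A1 at its top. Of 7 such markers tested COL1A1 (9.41 and 9.76) and LYZ of leukocytes (4.31 and 5.38) rose and VWF of endothelium (7.44 and 7.12) fell, and their part in the results was not tested. The control mean of LYZ lay under the level of 5 used for testing. Over all genes tested, 30.1% rose and 29.1% fell with HER2 siRNA, averaged over the 4 conditions. The GAPDH 3′ minus 5′ probe set difference, a measure of RNA integrity, averaged 0.305 ± 0.066 (SD, n = 12) in the control siRNA arrays. In the HER2 siRNA arrays it averaged 0.443 ± 0.060 (SD, n = 12), so it moved with the siRNA. The same difference for ACTB was 1.17 ± 0.29 (SD, n = 12) in control and 1.40 ± 0.33 (SD, n = 12) in HER2 siRNA arrays, and HER2 siRNA estrogen 4 h replicate 1, at 2.30, stood above the next HER2 siRNA array at 1.52. Each was fitted as a covariate.

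The primary cilium is a single, non-motile extension of the cell surface that grows from a centriole in cells that have left the division cycle and carries receptors such as those of Hedgehog signalling. Its parts are moved along microtubules as trains: kinesin-2 and the IFT-B complex carry them towards the tip, and dynein-2 and the IFT-A complex bring them back. The BBSome, a coat of Bardet-Biedl syndrome (BBS) proteins assembled with the help of chaperonin-like proteins, carries membrane proteins, and the transition zone at the base acts as a gate. Cilia are known to be rare on many breast carcinoma cells. The arrays measured RNA, and no measurement of cilia was used here.

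With HER2 siRNA, most of the tested ciliary genes were higher, with at least 1 rise in every role except the small GTPase, and 3 were lower. Averaged over the 4 conditions, 23 of 29 rose, 3 fell and 3 did not pass the test. Of all genes tested, 30.1% rose and 29.1% fell, so change in either direction was common on these arrays, and the members' count is to be read against that. The list was drawn up with earlier results of these data known, so the count is a description of these genes. Genes of the same machinery outside the list are given below. The median difference of the 29 genes was 0.28, against -0.00 over all genes tested, and 25 of 29 had a positive difference. Without DYNLRB2, which prompted the list, 22 of 28 rose and the median was 0.27. IFT74 reached the level for testing in 6 arrays, all of HER2 siRNA, so its place among the tested genes rested on the group in which it was higher. With no filter on level, 24 of the 35 measured genes rose and 3 fell. That fit held 19775 genes, and the shares of all genes given above do not apply to it. In bulk RNA, more RNA per cell and more cells with that RNA cannot be told apart.

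**Figure D1:**
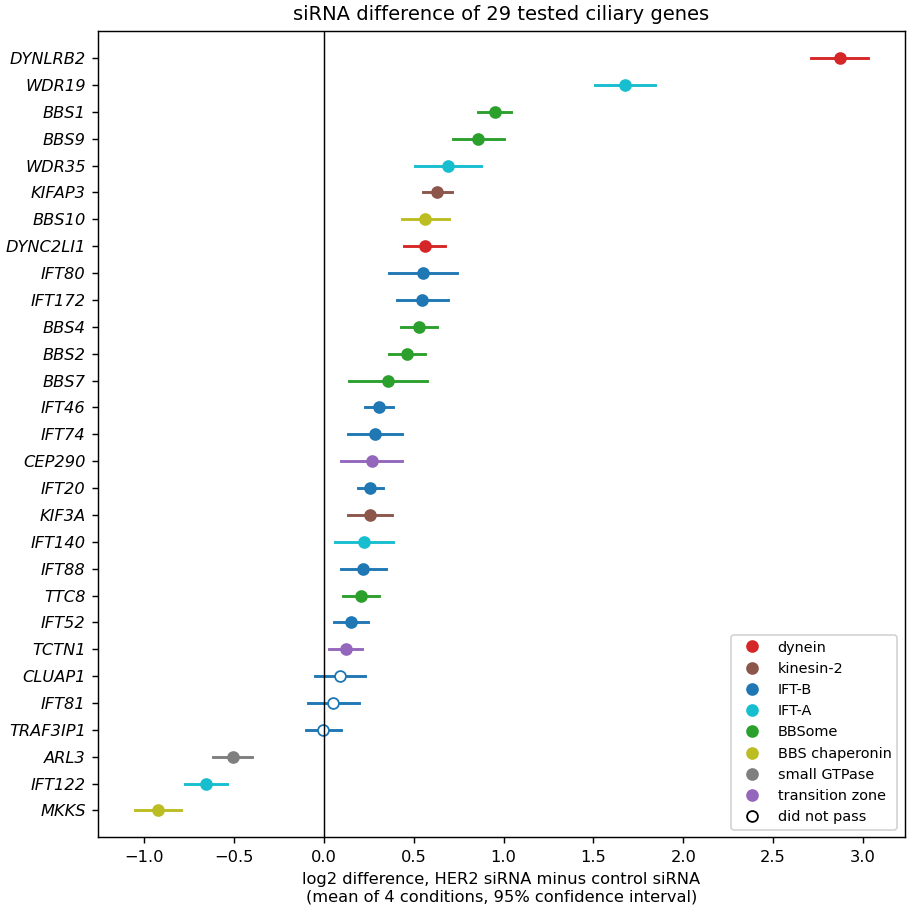
Log2 difference of each of the 29 tested ciliary genes, HER2 siRNA minus control siRNA averaged over 4 conditions, with its 95% confidence interval and coloured by role. Open points did not pass the test. DYNLRB2 lies at 2.87 and WDR19 at 1.68, and MKKS, IFT122 and ARL3 lie below 0.

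The dynein genes included the list's largest difference. DYNLRB2 encodes a roadblock-type light chain of cytoplasmic dynein. With control siRNA its 3 arrays read 4.98, 5.32 and 5.42 in vehicle at 4 h, 5.07, 4.94 and 5.001 in estrogen at 4 h, 5.36, 5.59 and 5.80 in vehicle at 24 h, and 4.77, 5.11 and 5.45 in estrogen at 24 h. With HER2 siRNA they read 7.57, 7.77 and 7.88 in vehicle at 4 h, 7.56, 7.67 and 7.93 in estrogen at 4 h, 8.63, 8.65 and 8.52 in vehicle at 24 h, and 8.19, 8.54 and 8.34 in estrogen at 24 h. Every HER2 siRNA array was above every control siRNA array, and the highest 6 were the 24 h arrays. The averaged difference was 2.87 ± 0.076, a 7.31-fold change and the second largest rise of the 14335 genes. It is given as a description, since the gene was picked for this difference. The gene has 1 probe set on the array, so no second reading was possible.

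DYNC2LI1, a light intermediate chain of the dynein-2 motor, ranged from 7.73 through a median of 7.90 to 8.003 with control siRNA and from 8.20 through 8.38 to 8.70 with HER2 siRNA. The 12 arrays of each siRNA did not overlap, and the rise was 0.56 ± 0.055 (adjusted p = 9.51e-09). How many of all genes tested lacked overlap was not counted, so here and below non-overlap only describes the gene named. The heavy chain gene DYNC2H1 was below the level for testing, at 3.55 to 4.27 in all arrays. Both tested genes of the kinesin-2 motor rose, where 30.1% of all genes tested rose. KIFAP3, its accessory subunit, read 8.73, 8.93 and 9.12 (lowest, median, highest) with control siRNA and 9.33, 9.58 and 9.70 with HER2 siRNA, with no overlap and a rise of 0.63 ± 0.040 (adjusted p = 7.85e-12). KIF3A, a motor subunit, overlapped between the siRNAs, with a smaller rise of 0.26 ± 0.059. A second KIF3A probe set differed by -0.08 and was not called, and the KIF3A call ended with the probe sets of a gene averaged.

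**Figure D2:**
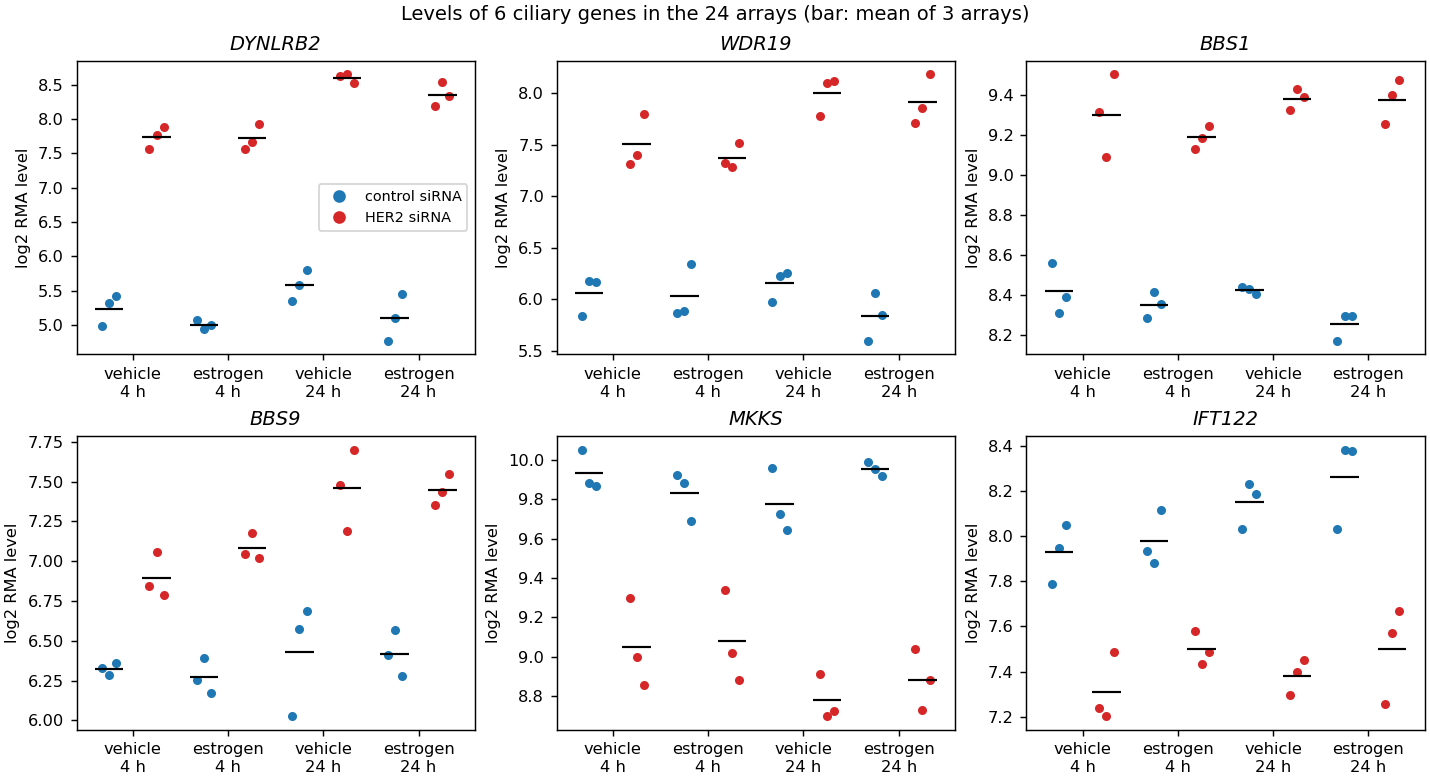
Log2 RMA level of DYNLRB2, WDR19, BBS1, BBS9, MKKS and IFT122 in the 24 arrays, by condition, with control siRNA in blue and HER2 siRNA in red, each point an array and each bar the mean of 3. In every panel the 12 arrays of one siRNA do not overlap those of the other, and the share of all genes without overlap was not counted.

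Of the 4 tested IFT-A genes, 3 rose and 1 fell, where 30.1% of all genes tested rose and 29.1% fell. WDR19, a core IFT-A subunit, ranged from 5.59 through a median of 6.01 to 6.34 with control siRNA and from 7.28 through 7.74 to 8.18 with HER2 siRNA. All HER2 siRNA arrays were above all control arrays, and the rise of 1.68 ± 0.080 (adjusted p = 8.56e-14) was 3.20-fold. WDR35, another IFT-A subunit, read 5.77, 6.04 and 6.38 (lowest, median, highest) with control siRNA and 6.40, 6.69 and 7.10 with HER2 siRNA, a rise of 0.69 ± 0.087. The 2 sets of arrays nearly met but did not overlap. IFT122, also a core subunit of the same complex, moved the other way, from 7.79, 8.04 and 8.38 down to 7.20, 7.44 and 7.67, a fall of 0.66 ± 0.057 (adjusted p = 1.44e-09). A second IFT122 probe set differed by -0.02 and was not called. IFT140 had a difference of 0.22 ± 0.079, which passed, but with the probe sets of a gene averaged its difference was -0.0032.

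Of the 10 IFT-B genes tested, 7 rose, 3 did not pass and none fell, where 30.1% of all genes tested rose and 29.1% fell. IFT74 reached the level for testing in HER2 siRNA arrays alone. The rises were IFT80 by 0.55 ± 0.090, IFT172 by 0.55 ± 0.069, IFT46 by 0.30 ± 0.038, IFT74 by 0.28 ± 0.073, IFT20 by 0.26 ± 0.033, IFT88 by 0.22 ± 0.060 and IFT52 by 0.15 ± 0.046. These are subunits of the complex that loads onto kinesin-2 at the ciliary base. Among the 7, only the arrays of IFT46 did not overlap between the siRNAs (7.36 to 7.57 against 7.60 to 8.07), and the share of all genes without overlap was not counted. CLUAP1 (0.09 ± 0.066), IFT81 (0.05 ± 0.068) and TRAF3IP1 (-0.00 ± 0.046), which are also IFT-B subunits, were those that did not pass. A second IFT81 probe set had a difference of -0.19 (adjusted p = 0.0292, over all probe sets above the level for testing), so the 2 probe sets of that gene disagreed. The second IFT52 probe set differed by -0.02 and was not called, and the IFT52 call ended with the probe sets of a gene averaged.

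All 6 tested BBSome genes rose, where 30.1% of all genes tested rose. BBS1 ranged from 8.17 through 8.37 to 8.56 with control siRNA and from 9.09 through 9.32 to 9.50 with HER2 siRNA, and its rise of 0.95 ± 0.045 (adjusted p = 7.08e-14) came with no overlap of arrays. The other BBS1 probe sets, at lower mean levels of 6.40 and 4.80, differed by 0.06 and -0.00 and were not called, so the rise of BBS1 rests on its brightest probe set. BBS9 read 6.03, 6.34 and 6.69 (lowest, median, highest) with control siRNA and 6.79, 7.18 and 7.70 with HER2 siRNA, a rise of 0.86 ± 0.069 without overlap. BBS4 rose by 0.53 ± 0.047, BBS2 by 0.46 ± 0.048, BBS7 by 0.36 ± 0.104 and TTC8 by 0.21 ± 0.049. BBS5, the remaining listed BBSome gene, was at 3.41 to 4.03 in all arrays and was not tested.

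The genes of the chaperonin-like proteins that assemble the BBSome were split. BBS10 read 7.40, 7.63 and 7.77 (lowest, median, highest) with control siRNA and 7.76, 8.14 and 8.49 with HER2 siRNA, a rise of 0.56 ± 0.063 (adjusted p = 7.72e-08), and the lowest HER2 siRNA array lay just under the highest control array. MKKS, its partner in the same assembly, fell by 0.92 ± 0.061 (adjusted p = 1.96e-11), the list's largest fall, from 9.64, 9.90 and 10.05 to 8.70, 8.90 and 9.34. Its arrays did not overlap, and its second probe set also fell, by 0.34. BBS12, the remaining chaperonin-like gene, was at 3.36 to 4.43, below the level for testing. Without a filter BBS12 had a difference of 0.33 ± 0.061 (adjusted p = 8.68e-05), the only one of the 6 dim genes to pass.

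ARL3, a small GTPase that releases lipid-anchored proteins inside the cilium, ranged from 7.83 through 8.02 to 8.15 with control siRNA and from 7.34 through 7.46 to 7.82 with HER2 siRNA. It fell by 0.51 ± 0.052 (adjusted p = 2.04e-08) without overlap of arrays, and its second probe set differed by -0.11 and was not called. ARL6, the GTPase that brings the BBSome to membranes, was too dim to test. The transition zone genes CEP290 and TCTN1 rose by 0.26 ± 0.082 and 0.12 ± 0.045. A second TCTN1 probe set rose by 0.30 (adjusted p = 9.46e-06, over all probe sets above the level for testing). TCTN1 held the smallest rise of the 23 and its call ended without any 1 of 4 arrays (control siRNA vehicle 24 h replicate 1, control siRNA estrogen 4 h replicate 1, HER2 siRNA vehicle 24 h replicate 2 and HER2 siRNA estrogen 4 h replicate 3), where its adjusted p was 0.0503 to 0.0555.

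With the GAPDH 3′ minus 5′ difference as a covariate, 19 genes rose and 3 fell, and the median was 0.39. The genes no longer called were KIF3A, IFT52, IFT140 and TCTN1. DYNLRB2 had a difference of 2.92 in that fit. The shares of all genes given above are from the fit without a covariate. With the ACTB difference as a covariate, a fit added after the data were seen, 23 rose and 3 fell, as they did without the array at 2.30, and DYNLRB2 had a difference of 2.95. Of the 29 genes, 16 had more than 1 probe set above the level for testing. In 9 of these all probe sets had the same call, and in none were 2 probe sets called in opposite directions.

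The siRNA differences were then read in each condition, over 3 arrays against 3. At 4 h, 12 genes rose and 3 fell in vehicle, and 12 rose and 3 fell in estrogen. At 24 h, 18 rose and 3 fell in vehicle, and 16 rose and 3 fell in estrogen. Over all genes tested, 16.5% rose and 17.8% fell in vehicle at 4 h, 16.8% and 17.3% in estrogen at 4 h, 19.7% and 21.8% in vehicle at 24 h, and 21.5% and 20.5% in estrogen at 24 h. The 3 genes that fell were MKKS, IFT122 and ARL3 each time. The genes that rose in each of the 4 conditions numbered 11 (DYNLRB2, DYNC2LI1, KIFAP3, IFT80, IFT172, WDR19, WDR35, BBS1, BBS2, BBS9 and BBS10), where 10.6% of all genes rose and 12.2% fell in all 4. BBS7, CEP290, IFT140, TCTN1, CLUAP1, IFT81 and TRAF3IP1 passed in no single condition.

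DYNLRB2 differed by 2.50 in vehicle at 4 h, 2.72 in estrogen at 4 h, 3.02 in vehicle at 24 h and 3.25 in estrogen at 24 h, each with an SE of 0.151. WDR19 rose by 1.44, 1.34, 1.84 and 2.08 in the same order, each with an SE of 0.160. MKKS fell by 0.88, 0.75, 1.00 and 1.07 in that order, each with an SE of 0.123.

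**Figure D3:**
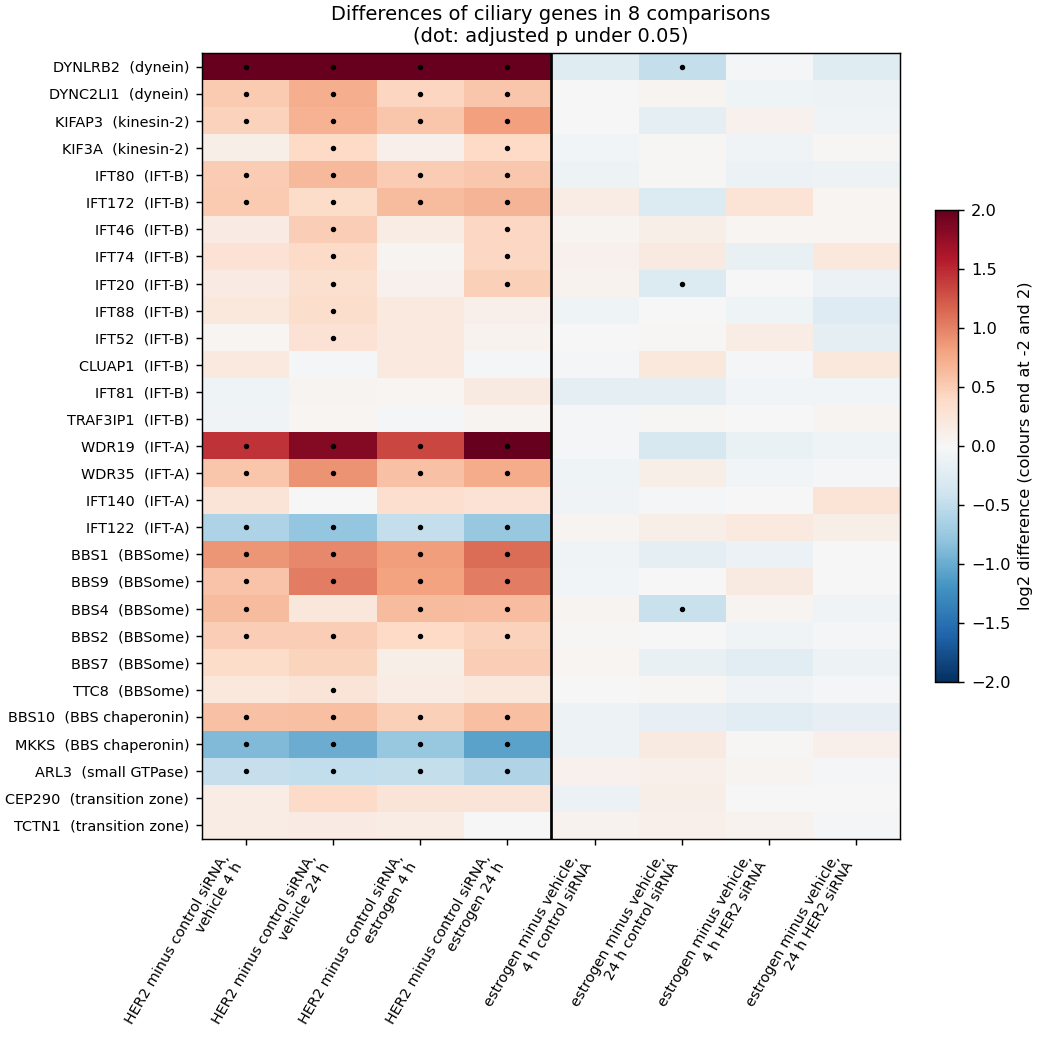
Log2 differences of the 29 tested genes, grouped by role, in the 4 siRNA comparisons (left of the line) and the 4 estrogen comparisons (right), with a dot where the adjusted p was under 0.05. The colours of DYNLRB2, at 2.50 to 3.25 with HER2 siRNA, end at 2, and 3 dots stand on the estrogen side.

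Whether the siRNA difference changed between the times was tested as the difference at 24 h minus that at 4 h, averaged over vehicle and estrogen. IFT20, which also works at the Golgi, had a siRNA difference of 0.12 at 4 h and 0.40 at 24 h, an increase of 0.28 ± 0.066 (adjusted p = 0.0274). Its control arrays at 24 h read 9.53, 9.35 and 9.47 in vehicle and 9.28, 9.15 and 9.12 in estrogen, and its HER2 siRNA arrays read 9.76, 9.77 and 9.79 and 9.66, 9.59 and 9.71. At 4 h its control arrays were at 9.38 to 9.52 and its HER2 siRNA arrays at 9.47 to 9.61, which overlap. IFT46 went from 0.16 to 0.45, an increase of 0.29 ± 0.075 (adjusted p = 0.0387). Both increases were under 0.3 on the log2 scale. Of all genes tested, 1.73% had a higher siRNA difference at 24 h, so 2 of 29 is a small count on a small background.

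DYNLRB2 had an increase of 0.53 ± 0.151 (adjusted p = 0.0628) and WDR19 of 0.57 ± 0.160 (adjusted p = 0.0564), and neither passed in the fit without a replicate block. With the replicate number as a block both passed (adjusted p = 0.0112 and 0.00248), and all 3 pairs of same-numbered arrays correlated over 0.1 in 3 of the 4 siRNA comparisons. Of the 29 genes 21 had a positive value, against 52% of all genes. The call of IFT20 ended without each of 5 arrays (control siRNA vehicle 24 h replicate 2, control siRNA estrogen 24 h replicate 3, HER2 siRNA estrogen 24 h replicate 3, control siRNA estrogen 4 h replicate 2 and HER2 siRNA vehicle 4 h replicate 1), at an adjusted p of up to 0.0549. That of IFT46 ended without each of 17 of the 24 arrays, at up to 0.0733. It held without control siRNA estrogen 24 h replicate 1, control siRNA vehicle 4 h replicate 2, control siRNA estrogen 4 h replicate 3, HER2 siRNA vehicle 24 h replicate 1, HER2 siRNA estrogen 24 h replicate 1, HER2 siRNA vehicle 4 h replicate 2 or HER2 siRNA estrogen 4 h replicate 1.

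**Figure D4:**
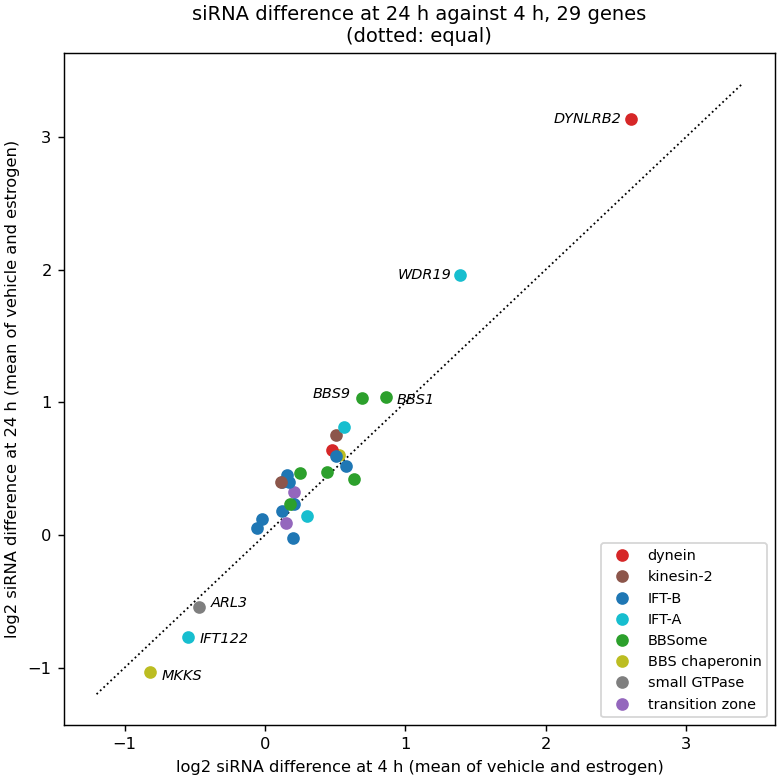
Log2 siRNA difference at 24 h against that at 4 h, each the mean of vehicle and estrogen, for the 29 tested genes coloured by role, with a dotted line where they are equal. DYNLRB2 goes from 2.61 to 3.13 and WDR19 from 1.39 to 1.96, and 21 of 29 genes lie above the line.

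Within a siRNA, few ciliary genes passed between 24 and 4 h, and few of all genes did. With HER2 siRNA in vehicle DYNLRB2 rose by 0.86 ± 0.151 (adjusted p = 0.00209), BBS9 by 0.56 ± 0.138 (adjusted p = 0.0190) and IFT20 by 0.23 ± 0.066 (adjusted p = 0.0433), where 6.46% of all genes passed in either direction. With the replicate number as a block, 7 genes passed in that comparison: these 3, WDR19 (0.49), IFT52 (0.29) and IFT46 (0.24), which rose, and MKKS (-0.27), which fell. The 6.46% is from the fit without a block, and the share of all genes in the blocked fit is not given here. With HER2 siRNA in estrogen DYNLRB2 rose by 0.64 ± 0.151 (adjusted p = 0.0131) and WDR19 by 0.54 ± 0.160 (adjusted p = 0.0479), against 6.21% of all genes. With control siRNA BBS4 rose in vehicle by 0.46 ± 0.094 (adjusted p = 0.0237), against 0.781% of all genes, and IFT20 fell in estrogen by 0.28 ± 0.066 (adjusted p = 0.0151), against 5.96%. DYNLRB2 with control siRNA had time differences of 0.34 in vehicle and 0.10 in estrogen, which did not pass.

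Of these time calls, that of DYNLRB2 in HER2 siRNA vehicle held without any 1 of the 24 arrays (adjusted p up to 0.0250). In HER2 siRNA estrogen it ended without 24 h replicate 2, 4 h replicate 1 or 4 h replicate 2 of that group pair (up to 0.0772), and the WDR19 call ended without 13 of the 24 arrays (up to 0.258), which are the same 3, 24 h replicate 3 of that pair, control siRNA vehicle 24 h replicates 2 and 3 and 4 h replicates 2 and 3, control siRNA estrogen 24 h replicate 3 and 4 h replicate 2, and HER2 siRNA vehicle 24 h replicates 2 and 3 and 4 h replicate 2. The BBS9 call ended without HER2 siRNA vehicle 24 h replicate 3, 4 h replicate 1 or 4 h replicate 3 (up to 0.101), and the IFT20 call in HER2 siRNA vehicle without 11 of the 24 arrays (up to 0.233). These 11 are HER2 siRNA vehicle 24 h replicates 1, 2 and 3 and 4 h replicates 1 and 2, HER2 siRNA estrogen 24 h replicate 1 and 4 h replicate 3, control siRNA vehicle 24 h replicate 3 and 4 h replicates 2 and 3, and control siRNA estrogen 4 h replicate 3. The BBS4 call ended without any 1 of the 6 arrays compared (up to 0.104), and the IFT20 call in control siRNA estrogen without 24 h replicate 2, 24 h replicate 3 or 4 h replicate 2 (up to 0.0903).

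Estrogen calls among the ciliary genes were few, and each count is given beside the share of all genes. With 29 genes, counts this small do not tell the list apart from all genes. At 4 h none of 29 passed with control siRNA, where 0.342% of all genes did, and none with HER2 siRNA, where 0.698% did. By unadjusted p under 0.05 the count was also 0 in both, against 3.92% and 7.41% of all genes. At 24 h with control siRNA 3 genes fell and none rose, where 6.52% of all genes fell. In either direction, 4 of 29 had an unadjusted p under 0.05 there, against 25.9% of all genes. BBS4 fell by 0.45 ± 0.094 (adjusted p = 0.00267), from 8.20, 8.19 and 8.05 in vehicle to 7.67, 7.73 and 7.70 in estrogen, with no overlap. IFT20 fell by 0.27 ± 0.066 (adjusted p = 0.00874) and DYNLRB2 by 0.47 ± 0.151 (adjusted p = 0.0413). The DYNLRB2 arrays overlapped, since the highest estrogen array (5.45) was above the lowest vehicle array (5.36).

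The DYNLRB2 call with estrogen ended without each of 4 arrays (control siRNA vehicle 24 h replicates 2 and 3 and control siRNA estrogen 24 h replicates 1 and 2), at an adjusted p of up to 0.230. It also ended with no filter (0.0522), with the GAPDH covariate (0.0605), without the 3 arrays numbered apart (0.114) and with only the groups compared (0.127). The IFT20 call ended without control siRNA vehicle 24 h replicate 1 or control siRNA estrogen 24 h replicate 3 (up to 0.0546), and the BBS4 call held without any 1 array (up to 0.0164). At 24 h with HER2 siRNA none of 29 passed in limma's test, against 6.17% of all genes, and 2 of 29 had an unadjusted p under 0.05, against 16.0% of all genes. There DYNLRB2 had a difference of -0.24 ± 0.151 and BBS4 of -0.06 ± 0.094. The estrogen difference itself was not shown to depend on the siRNA for any ciliary gene: 0 of 29 passed at 4 h (0.00% of all genes) and 0 of 29 at 24 h (0.0628%). By unadjusted p under 0.05 the counts were 0 and 1, against 2.81% and 6.04% of all genes, the latter BBS4 at 0.38 ± 0.133 (adjusted p = 0.565).

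The promoters of the listed genes were read from RefSeq (GRCh38.p14), from 250 bases before to 50 after each gene's start, since RFX factors at X-box sites and the forkhead factor FOXJ1 are the known regulators of ciliary genes. Of 36 genes 34 matched. The DYNLRB2 promoter that holds a match, chr16:80540743-80541042 on the plus strand, is shown because this gene had the list's largest difference. Capitals mark the match to a 7-base part of the X-box, with any base at position 6 (GTTGCNA on either strand). A whole X-box was not searched for.

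DYNLRB2: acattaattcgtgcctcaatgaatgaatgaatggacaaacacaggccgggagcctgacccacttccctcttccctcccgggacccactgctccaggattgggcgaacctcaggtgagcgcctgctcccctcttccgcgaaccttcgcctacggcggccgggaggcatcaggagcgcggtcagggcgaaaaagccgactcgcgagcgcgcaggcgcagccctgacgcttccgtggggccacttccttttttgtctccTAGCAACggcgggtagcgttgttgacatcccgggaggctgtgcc

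A second RefSeq promoter of DYNLRB2, chr16:80540484-80540783, overlaps it and holds no match. The X-box part GTTGCCA, on either strand, was present in the promoters of 9 of 34 listed genes (26.5%), against 4.98% of all 27305 genes with a promoter. It was found in 4 of the 21 genes with a promoter that rose (BBS1, DYNC2LI1, IFT46 and IFT88), 1 of the 3 that fell (IFT122), 2 of the 3 that did not pass (CLUAP1 and IFT81) and 2 that were not tested (ARL6 and DYNC2H1). The X-box part thus stood in genes of every outcome. The following 40-base windows are of the gene's strand, with the X-box part in capitals. They set genes that rose (first 4), fell (IFT122) and did not pass (last 2) side by side. They lie at chr11:66510619-66510658 (plus, BBS1), chr2:43774013-43774052 (plus, DYNC2LI1), chr11:118566105-118566144 (minus, IFT46), chr13:20567155-20567194 (plus, IFT88), chr3:129440195-129440234 (plus, IFT122), chr16:3500965-3501004 (plus, CLUAP1) and chr12:110124340-110124379 (plus, IFT81).

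BBS1: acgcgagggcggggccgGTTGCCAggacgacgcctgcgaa
DYNC2LI1: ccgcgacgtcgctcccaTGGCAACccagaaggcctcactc
IFT46: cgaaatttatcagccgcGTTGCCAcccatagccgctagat
IFT88: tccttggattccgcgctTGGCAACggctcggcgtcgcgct
IFT122: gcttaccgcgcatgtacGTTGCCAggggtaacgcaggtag
CLUAP1: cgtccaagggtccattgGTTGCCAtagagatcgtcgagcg
IFT81: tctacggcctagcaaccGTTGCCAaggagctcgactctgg

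With any base at position 6, a form added after the sequences were seen and one that contains every GTTGCCA match, 14 of 34 genes (41.2%) held a match, against 11.1% of all genes. This added DYNLRB2, TTC8, TRAF3IP1, BBS12 and RPGRIP1L. The forkhead core GTAAACA was found in 2 of 34 genes (5.88%), IFT20 and CLUAP1, against 4.19% of all genes. WDR35 and BBS9 had no promoter in the table. A match is a run of letters and was not tested as a bound site.

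Over all genes tested 30.1% rose and 29.1% fell, and the counts of the lists below stand beside these shares. Of 12 listed transcription factors of the RFX family, FOXJ1 and others 7 could be tested, and 1 rose and 1 fell. The count of rises was 2 with the replicate block or quantile normalisation and 0 with the mean of probe sets. RFX5, known for its work at MHC class II promoters, fell by 0.31 ± 0.041 (adjusted p = 9.99e-07) and RFX7 rose by 0.21 ± 0.063 (adjusted p = 0.00608). FOXJ1, the regulator of motile cilia, had a level of 5.91 in control and 5.96 in HER2 siRNA arrays, a difference of 0.06 ± 0.075 (adjusted p = 0.562). Of 24 motile cilium genes 14 were tested, 2 rose and 2 fell, with a median of 0.06. CFAP53, a protein of motile axonemes, rose by 1.11 ± 0.126 and DNAH5, an outer arm dynein, by 0.36 ± 0.056, while CAPS fell by 0.98 ± 0.054 and TUBA4B by 0.26 ± 0.052. Of 7 markers of multiciliated cells, mean levels ran from 3.34 to 6.24 with control siRNA and 3.35 to 6.36 with HER2 siRNA, and 1 of the 4 tested (DNAH5) rose. Their part in the DYNLRB2 rise was not tested.

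Other genes of the same machinery, outside the 36, are read against the same 30.1% of all genes that rose and 29.1% that fell. Of 12 further IFT and BBSome genes 7 were tested, 2 rose and 2 fell, shares near that background, with a median of 0.01 that was -0.01 with array medians made equal. LZTFL1, which holds back BBSome traffic, rose by 0.75 ± 0.076 and the IFT-A gene IFT43 by 0.39 ± 0.033. The IFT-B genes IFT27 and IFT22 fell by 0.15 ± 0.045 and 0.086 ± 0.035, but with the GAPDH covariate or the mean of probe sets 0 of 7 fell, and 1 fell with quantile normalisation or without the arrays numbered apart. Of 16 further dynein and kinesin-2 subunits 15 were tested, 4 rose and 5 fell, also near the background, with a median of 0.03 that turned to -0.02 when the probe sets of a gene were averaged or the GAPDH covariate was fitted. In those fits and with equal array medians 2 rose. DYNLRB1, the other roadblock light chain, had mean levels of 13.54 with control siRNA and 13.71 with HER2 siRNA and rose by 0.17 ± 0.031 (adjusted p = 5.88e-05). The light chain genes DYNLT3, DYNLT1 and DYNLT2B fell by 1.00 ± 0.056, 0.38 ± 0.031 and 0.32 ± 0.042, and the dynein-2 intermediate chain gene DYNC2I2 fell by 0.46 ± 0.042.

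Of 29 further transition zone and basal body genes 24 were tested, 9 rose and 10 fell. Their median of -0.05 was 0.06 with the GAPDH covariate, and 6 of 19 fell with the mean of probe sets. TMEM138 and TMEM237, membrane proteins of the transition zone, fell by 0.78 ± 0.038 and 0.75 ± 0.040. TTBK2, a kinase that starts cilium growth at the mother centriole, rose by 0.91 ± 0.086, and OFD1, a centriolar protein, rose by 0.39 ± 0.036. Of the 18 Hedgehog pathway genes 13 were tested, 6 rose and 1 fell, with a median of 0.13, where 30.1% of all genes rose and 29.1% fell. PTCH1, the Hedgehog receptor and itself a target of the pathway, ranged from 5.13 through 5.60 to 6.15 with control siRNA and from 6.19 through 6.93 to 7.56 with HER2 siRNA, and rose by 1.29 ± 0.092 (adjusted p = 6.46e-11) without overlap. GLI1, another known target, had a difference of 0.07 ± 0.070 (adjusted p = 0.385). CDON rose by 0.59 ± 0.084 and SUFU by 0.35 ± 0.044, and GPR161 fell by 0.44 ± 0.050.

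Genes known to act in cilium disassembly or in capping of the mother centriole were mostly lower. Of 13 listed 12 were tested, 8 fell and 1 rose, with a median of -0.37. Over all genes tested, 29.1% fell and 30.1% rose. NEK2 fell by 1.69 ± 0.091, AURKA by 1.43 ± 0.062, KIF2A by 1.07 ± 0.054 and PLK1 by 0.93 ± 0.077. All 4 are also known for their work in mitosis, so the list does not separate the cilium from the division cycle. CCP110, a capping protein, had a difference of -0.02 ± 0.075 and HDAC6, a tubulin deacetylase, of 0.05 ± 0.035, and neither passed.

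**Figure D5:**
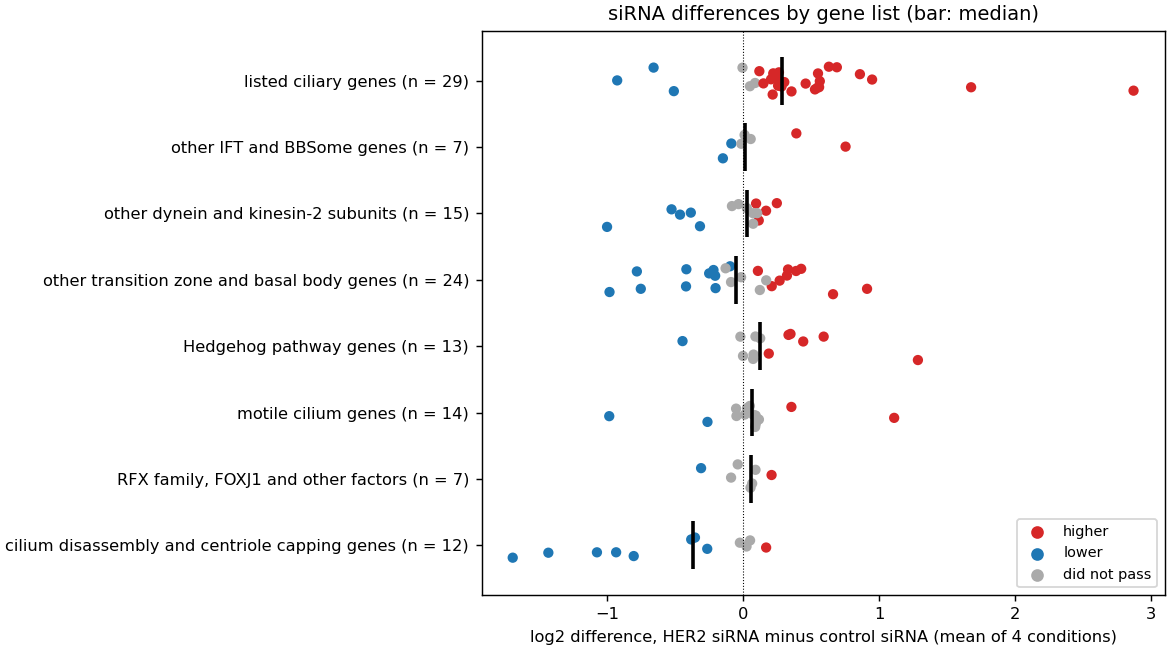
Log2 differences, HER2 siRNA minus control siRNA averaged over 4 conditions, of the tested genes of each list, red where a gene rose, blue where it fell and grey where it did not pass, with a bar at each median. The listed ciliary genes have a median of 0.28 and the disassembly and capping genes of -0.37, and the vertical spread of points has no meaning.

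DYNLRB2 was set against all 14335 genes by the root mean square difference of the 8 group means, each gene centred on its own mean but not scaled. The measure therefore follows the size of the siRNA difference, for which DYNLRB2 was picked, and lists genes of like size. The 5 nearest genes were N4BP2L1 (0.152), CYBRD1 (0.254), DEPP1 (0.288), KCNJ13 (0.317) and GPC5 (0.330), in log2 units. Their averaged siRNA differences were 2.86, 2.43, 2.79, 2.95 and 2.32. None of these 5 is on the ciliary list.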

How the data were processed

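Total RNA of BT-474 cells was extracted with Trizol, labelled with biotin and measured on 24 Affymetrix HG-U133 Plus 2.0 arrays. The deposited values are log2 levels, 1 per probe set and array, made by the authors with RMA, per the submitters' processing notes. Its version and settings are not given in the sources used here. Arrays have no read depth, and 3 arrays a group limit the precision.

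Groups came from the labels. HER2 siRNA estrogen 4 h replicate 3 has a source name of 24 h but a title, description and characteristics of 4 h, and was placed at 4 h. Nothing in the labels tells separate cultures from repeat arrays, and p-values here reflect the spread among the arrays, which may be technical. Of 54675 probe sets 41091 had 1 gene symbol, 1801 several, 11721 none in the annotation used and 62 were controls. No symbol changed through its Entrez number. Each gene was represented by its brightest probe set (19775 genes), and genes at a log2 level of 5 or more in at least 3 arrays were tested (14335).

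limma 3.58.1 in R 4.3.3 fitted 1 mean per group to all 24 arrays (lmFit, eBayes), with 16 contrasts and Benjamini-Hochberg adjustment over all tested genes. The fit was tested on simulated data. The ciliary genes, the other lists and the markers were chosen with earlier results of these data known. Named were DYNLRB2 with its values in every array, up to 8 called genes each way with their lowest, median and highest level, the other listed genes by difference, up to 4 genes of smallest adjusted p for the other lists (others beside them were chosen after their values were seen), every gene past the threshold in the time and estrogen comparisons, and the 5 genes nearest to DYNLRB2. Promoters were searched on both strands in Python 3.11.15.

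Same-numbered arrays were compared by the correlation of their deviations from the group means. All 3 pairs exceeded 0.1 in 5 of 12 comparisons of 2 groups. These were siRNA in vehicle at 4 and 24 h and in estrogen at 4 h. The rest of the 5 were estrogen at 24 h with HER2 siRNA and time with HER2 siRNA in vehicle. The median correlation was 0.2052 over 84 same-numbered pairs and -0.1066 over 168 differently numbered pairs. The replicate numbers come from the labels, and the label numbers of the arrays rise with them. What same-numbered arrays shared is not stated in the labels. The block was fitted only as an alternative. Alternatives were no filter, a filter at 7, the replicate block, leaving out the 3 arrays whose label numbers stand apart, averaging all probe sets of each gene, equal array medians, quantile normalisation, the GAPDH covariate, the ACTB covariate (added after the data were seen), only the groups compared, a trended robust prior, and leaving out each array.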

Additional observations from a re-analysis of the deposited data

Results flagged for a closer look

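The siRNA difference of IFT20 was larger at 24 h than at 4 h by 0.2753 ± 0.066 on the log2 scale (adjusted p = 0.0274), and that of IFT46 by 0.2919 ± 0.075 (adjusted p = 0.0387), by limma's test of the difference itself. In IFT20 the control siRNA arrays in estrogen at 24 h, at 9.12 to 9.28, were the lowest of all 24. In IFT46 the 24 h HER2 siRNA arrays, at 7.80 to 8.07, were all above the 4 h HER2 siRNA arrays, at 7.60 to 7.79. No group of 4 or more arrays exists here, so single arrays were not examined for standing apart within a group.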

How the results depend on the processing

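The averaged siRNA count of 26 genes past the threshold lay between 21 and 27 under all alternatives and between 25 and 26 when any 1 array was left out, and DYNLRB2 between 2.82 and 2.95. Of 978 values of single genes under an alternative, 964 kept their side of the threshold and 13 lost the call. IFT140 reversed, to -0.0032, with the mean of probe sets, where 18 of 27 genes rose and 3 fell. A change of sign was counted among the 964 where the gene passed in neither fit, so these did not all keep direction. Without the 3 arrays numbered apart 21 rose. Shares of all genes are given only for the fit of 1 mean per group, so counts under an alternative have no background beside them. The small counts moved most. For the change of the siRNA difference with time (2 genes) the count was 1 with no filter, 4 with a filter at 7, 5 with the replicate block (adding DYNLRB2, WDR19 and KIFAP3, the last at an adjusted p of 0.0495), 4 with quantile normalisation, 4 with the trended robust prior, and 0 to 3 without 1 array. It was 0 without each of 4 arrays (control siRNA vehicle 24 h replicate 2, control siRNA estrogen 4 h replicate 2, HER2 siRNA estrogen 24 h replicate 3 and HER2 siRNA vehicle 4 h replicate 1). For estrogen at 24 h with control siRNA (3 genes) it was 1 with only the groups compared and 2 to 3 without 1 array. For time with control siRNA in vehicle (1 gene) it was 0 without the arrays numbered apart, 0 with only the groups compared and 0 to 1 without 1 array. For time with control siRNA in estrogen (1 gene) it was 2 with no filter, 2 with the replicate block, 3 without the arrays numbered apart, 0 with only the groups compared and 0 to 3 without 1 array. For time with HER2 siRNA in vehicle (3 genes) it was 6 with a filter at 7, 7 with the replicate block, 1 with only the groups compared and 1 to 4 without 1 array. For time with HER2 siRNA in estrogen (2 genes) it was 1 with no filter, 1 with the GAPDH covariate, 1 with the ACTB covariate, 1 with only the groups compared and 0 to 3 without 1 array. A fit of only the groups compared has fewer arrays to estimate the spread; beyond that the cause was not tested. The block moved no other count of calls by over 1.5 times. Averaged values use all groups, so they have no fit of only the groups compared, and DYNLRB2 has a single probe set. Probe sets near background, such as those of DYNC2H1, IFT57 and BBS5, limit what could be detected.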
